A study of Mus musculus with 6 samples.

Results

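Macrophage lineage transcription factors were examined in bone marrow mesenchymal stem cells (BMMSCs) after knockdown of Tet1 and Tet2. The 9 genes were chosen by symbol from the deposited table, which lists 36870 distinct symbols, and all 9 were expressed highly enough to be tested. They comprise the ETS factor Spi1, the large Maf factor Maf, the MiT/TFE factors Mitf, Tfec and Tfeb, the Krüppel-like factors Klf2 and Klf4, and the basic helix-loop-helix repressors Bhlhe40 and Bhlhe41. RNA-seq of total RNA was performed on 3 Control and 3 siTet1/Tet2 libraries of C57BL/6 mouse BMMSCs, the plastic-adherent cells grown out of flushed femurs and tibias. Cells of both groups had been transfected, with siRNAs against Tet1 and Tet2 together in the siTet1/Tet2 group and with non-targeting siRNAs in the Control group. The methods on sequencing call the control arm vehicle instead, and the passage is given as p2 in the labels and as the first passage in the methods. Neither the age of the mice nor whether the libraries of a group came from separate animals or cultures is stated, so p-values measure only the spread between these libraries.

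PU.1, the product of Spi1, is the master regulator of the myeloid lineage and sets up the enhancers of macrophages together with partner factors. Maf restrains macrophage self-renewal and is linked to the resident, scavenging state. Mitf, Tfec, Tfeb and Tfe3 bind E-box-like elements in genes of lysosomes and autophagy, and Mitf with PU.1 also drives osteoclast genes. Klf2 and Klf4 hold inflammatory activation in check, whereas Bhlhe40 and Bhlhe41 bind E-boxes and repress genes of the circadian clock and, in macrophages, lineage-inappropriate programmes.

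The values are RPKM, which corrects the reads of each gene for transcript length and library depth, so that levels of different genes can be set side by side. Fold changes are differences of the mean log2(RPKM + 1), which understates the change of genes with low RPKM, and adjusted p-values are from limma with Benjamini-Hochberg adjustment over 13266 genes. As a check on the knockdown, Tet2 had 2.57, 4.08 and 3.71 RPKM in Control libraries, and 0.358, 0.238 and 0.202 RPKM in siTet1/Tet2 libraries (adjusted p = 2.88e-05 in limma). Tet1 had 0.032, 0.098 and 0.05 RPKM in Control libraries against 0.001, 0.01 and 0.001 RPKM, where 0.001 is the lowest value the table lists, and fell short of the minimum level for a test. The third family member, Tet3, was at 7.03 ± 1.55 and 7.66 ± 0.767 RPKM (SD, n = 3, adjusted p = 0.508 in limma). The estimated depth was between 32400000 and 38600000 reads per library.

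The cells carried macrophage transcripts at a high level, although their label is that of a stromal cell. By flow cytometry, the paper reported CD90, CD73, CD105, PDGFR and Sca1 on BMMSCs of control and Tet1/Tet2 double knockout mice, without CD45 or CD34. That assay read surface protein, and it is not described for the siRNA-treated cells. Summed over 20 macrophage markers, RPKM was between 9918 and 12770 in Control libraries and between 18410 and 21480 in siTet1/Tet2 libraries, and 19 of the 20 had a mean of at least 1 RPKM. Most of this difference came from Lyz2, since the sum of the 19 other markers was between 6371 and 7760 RPKM in Control libraries and between 8569 and 8975 RPKM in siTet1/Tet2 libraries. The pan-macrophage gene Emr1, which encodes F4/80, ranged from 279 to 320 RPKM in Control libraries and from 339 to 364 RPKM in siTet1/Tet2 libraries. These ranges did not overlap, but the difference did not pass (adjusted p = 0.0624 in limma). Of these markers, 10 rose, 4 fell and 6 did not pass, with a median log2 fold change of 0.20. Summed over 17 stromal markers, RPKM was between 1171 and 1687 in Control libraries and between 149 and 302 in siTet1/Tet2 libraries, and 12 of the 14 tested fell, with a median of -2.40. Pdgfra, which defines marrow stromal cells, was at 9.51, 8.65 and 11.6 RPKM in Control libraries and at 0.805, 0.934 and 1.09 RPKM in siTet1/Tet2 libraries, and the stromal markers Lepr, Lum and Thy1 were each under a mean of 0.1 RPKM. In these bulk libraries, fewer cells of a type and less RNA per cell cannot be told apart, and the part of the changed stromal and macrophage transcripts in the results on the 9 genes was not tested. Markers of other cells were low. The summed RPKM of the Control and siTet1/Tet2 libraries reached at most 3.54 and 16.2 for 10 neutrophil markers, of which S100a9 and Retnlg stood at 0.001 in all 6 libraries. The same sums reached 16.5 and 27.1 for 7 osteoclast markers, 9.10 and 10.6 for 6 dendritic cell markers, and 5.04 and 7.71 for 6 endothelial markers. For 6 T cell markers they reached 2.88 and 8.83, nearly all from Cd4, for 6 B cell markers 1.14 and 1.63, and for 6 erythroid markers 1.09 and 2.43. In these small lists 1 neutrophil (S100a8), 2 osteoclast (Acp5 and Ctsk), 1 B cell (Cd79b), 1 T cell (Cd4), 2 endothelial (Pecam1 and Vwf), 1 erythroid (Epor) and 1 dendritic cell marker (Itgax) were higher, and 1 neutrophil (Camp) and 2 endothelial markers (Kdr and Emcn) were lower.

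Of the 9 transcription factors, 4 rose (Mitf, Tfeb, Bhlhe40 and Bhlhe41), 3 fell (Maf, Klf2 and Klf4) and 2 did not pass (Spi1 and Tfec). Over all genes tested, 14.7% were higher and 29.8% were lower with an adjusted p under 0.05 in limma, so that 44.5% passed in either direction, against 7 of the 9. The median log2 fold change of the 9 genes was 0.23, and that of all genes was -0.09. Only Klf2 and Klf4 fell by more than 2-fold on the log2(RPKM + 1) scale, as 5.63% of all genes did with an unadjusted p under 0.05, and 0 of the 9 rose by as much. The Control and siTet1/Tet2 libraries did not overlap in 7 of the 9 genes, a pattern that 55.7% of all genes showed. The balance over all genes depended on the scaling, since 66.9% of the genes that passed were lower as deposited and 42.1% after quantile normalization.

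**Figure D1:**
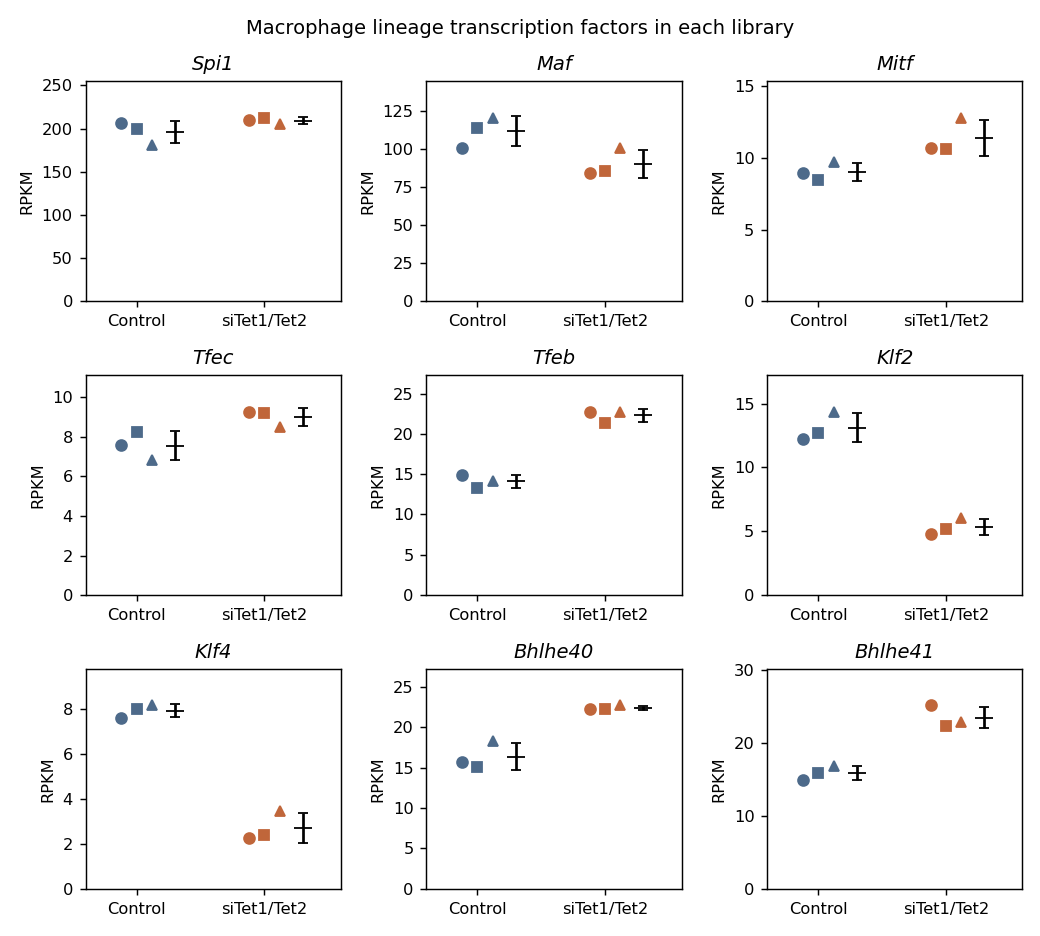
RPKM of the 9 macrophage lineage transcription factors in each library, with Control in blue and siTet1/Tet2 in orange, replicates 1, 2 and 3 as circle, square and triangle, and the mean ± SD of the 3 libraries in black on linear axes that start at 0. Klf2 and Klf4 separate the groups most widely, Tfeb, Bhlhe40 and Bhlhe41 are higher in every siTet1/Tet2 library, and the groups overlap in Spi1 and Maf.

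To show where these genes start, promoter sequences were taken from RefSeq on GRCm38.p6, in windows of 250 bases before and 50 bases after the start of transcription. Entries were matched for 6 of the 9 genes, and not for Spi1, Maf and Bhlhe40. Each window was searched on both strands for the PU box core GAGGAA, the E-box CACGTG, the KLF box CCACCC and the MEF2 consensus, which 28.3%, 7.15%, 31.5% and 3.19% of all 32851 mouse promoter windows hold. Matches are described as letters only. The windows of Klf2, Klf4 and Bhlhe41, the 3 members of the KLF and basic helix-loop-helix pairs with an entry, are shown 5′ to 3′ up to the last base before the start, because they include both of the largest decreases and a match to the E-box that the family of Bhlhe41 itself binds. Capitals mark the MEF2 match and the KLF box (read on the reverse strand) of Klf2, and the E-box of Klf4 and of Bhlhe41.
Klf2 (chr8:72318812-72319061, plus strand): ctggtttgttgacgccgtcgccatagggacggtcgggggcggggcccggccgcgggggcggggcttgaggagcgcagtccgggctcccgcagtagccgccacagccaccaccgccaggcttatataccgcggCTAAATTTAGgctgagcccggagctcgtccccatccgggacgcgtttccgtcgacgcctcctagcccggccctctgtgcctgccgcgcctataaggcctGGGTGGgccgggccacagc
Klf4 (chr4:55532476-55532725, minus strand): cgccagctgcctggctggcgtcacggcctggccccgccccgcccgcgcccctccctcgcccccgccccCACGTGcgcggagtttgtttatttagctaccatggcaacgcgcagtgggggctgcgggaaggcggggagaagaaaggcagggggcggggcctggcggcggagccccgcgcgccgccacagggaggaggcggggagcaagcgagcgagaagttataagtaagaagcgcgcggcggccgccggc
Bhlhe41 (chr6:145865421-145865670, minus strand): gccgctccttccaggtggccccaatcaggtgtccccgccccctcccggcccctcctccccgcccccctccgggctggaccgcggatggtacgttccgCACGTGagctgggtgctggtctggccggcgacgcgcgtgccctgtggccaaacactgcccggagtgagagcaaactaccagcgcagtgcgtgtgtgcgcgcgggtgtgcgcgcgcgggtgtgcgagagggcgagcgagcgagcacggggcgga

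These windows are rich in CpG, the dinucleotide whose methylated form Tet enzymes oxidise. Klf2 and Bhlhe41 each had 32 CpG dinucleotides in 300 bases and Klf4 had 40, where the median promoter has 7. The MEF2 match of Klf2 began 118 bases and its KLF box 19 bases upstream of the RefSeq start. The E-box began 182 bases upstream of that start in Klf4 and 153 bases upstream in Bhlhe41. GENCODE M21, used for the gene positions below, places the starts of Klf2 (72319033) and Bhlhe41 (145865558, minus strand) inside the printed sequences. The KLF box of Klf2 lies within the gene as placed there. The window of Tfec was poor in CpG, with 3, and held a PU box on the reverse strand that began 34 bases after the start. The 3 windows of Tfeb had 22, 20 and 6 CpG and none of the 4 motifs, and the 3 windows of Mitf had 22, 5 and 8 CpG, with a KLF box in 1 of them that began 26 bases upstream. Methylation was not measured in these libraries.

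Klf2, which lies on chromosome 8 from 72319033 to 72321656 (GRCm38, plus strand), encodes a zinc-finger factor that keeps monocytes and lymphocytes quiescent. It was at 12.2, 12.7 and 14.4 RPKM in Control libraries and at 4.81, 5.20 and 6.05 RPKM in siTet1/Tet2 libraries. Every siTet1/Tet2 library was below every Control library. The mean fell from 13.1 ± 1.14 to 5.35 ± 0.633 RPKM (SD, n = 3), or 59.1% lower, and the log2 fold change was -1.15 (standard error 0.10, 95% interval -1.38 to -0.92, adjusted p = 6.31e-05 from limma). By the estimated depth, between 340 and 860 reads stood behind a value.

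Klf4, on chromosome 4 from 55527143 to 55532466 (minus strand), encodes a related factor that is needed for monocyte differentiation and is also expressed in many stromal and epithelial cells. It was at 7.62, 8.03 and 8.18 RPKM in Control libraries and at 2.25, 2.42 and 3.48 RPKM in siTet1/Tet2 libraries. The groups were again apart, and siTet1/Tet2 replicate 3 was the highest of its group, as it was for Klf2. The mean fell from 7.94 ± 0.291 to 2.72 ± 0.668 RPKM (SD, n = 3), or 65.8% lower, and on the log2 scale the change was -1.28 (standard error 0.13, 95% interval -1.57 to -0.99, adjusted p = 0.000116 from limma). As a ratio of the group means, Klf4 was 2.93-fold lower and Klf2 was 2.45-fold lower.

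The ratio within the pair did not separate the groups. Klf4 relative to Klf2 was 0.624, 0.631 and 0.569 in Control libraries and 0.467, 0.465 and 0.575 in siTet1/Tet2 libraries, and the groups overlapped (two-sided exact permutation test, p = 0.2, where 0.1 is the smallest p that 3 libraries against 3 allow). Set against Spi1 in the same library, which removes a common share of myeloid RNA only if all of both transcripts come from the same cells, Klf2 was at 6.74% ± 1.05 in Control libraries and 2.57% ± 0.344 in siTet1/Tet2 libraries (SD, n = 3, exact permutation p = 0.1). Klf4 was at 4.08% ± 0.409 and 1.30% ± 0.344 of Spi1 (SD, n = 3, exact permutation p = 0.1). Spi1 itself changed little (log2 fold change 0.10, adjusted p = 0.275 in limma). These ratios therefore largely repeat the decrease of Klf2 and Klf4 and are not a separate test of it. The summed stromal markers fell in the same libraries, and their part in the decrease of Klf2 and Klf4 was not tested.

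Other Krüppel-like factors did not share 1 direction. Klf6, a zinc-finger factor induced by injury, fell from 80.3 to 60.8 RPKM (adjusted p = 0.00117 in limma), and Klf3, a transcriptional repressor, fell from 17.2 to 12.7 RPKM (adjusted p = 0.0133 in limma). Klf9, a target of glucocorticoid signalling, rose from 8.25 to 11.8 RPKM (adjusted p = 0.00187 in limma) and Klf13 from 17.7 to 24.7 RPKM (adjusted p = 0.0023 in limma). Klf10 was at 19.5 and 17.3 RPKM (adjusted p = 0.0753 in limma).

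Of 9 genes listed as targets of KLF2 and KLF4, 6 were tested, of which 4 fell and 2 rose, with a median log2 fold change of -0.44 beside -0.09 over all genes. Cdkn1c, which encodes the cell-cycle inhibitor p57, fell from 32.6 ± 3.14 to 7.31 ± 1.11 RPKM (SD, n = 3, log2 fold change -2.02, adjusted p = 7.15e-06 in limma). Cdkn1a, the gene of the inhibitor p21, fell from 189.9 to 109.6 RPKM (adjusted p = 6.04e-05 in limma). Thbd, the anticoagulant receptor thrombomodulin, fell from 14.5 to 9.94 RPKM (adjusted p = 0.00953 in limma), and the fourth lower gene was Zc3h12a, an RNase of inflammatory transcripts. Arg1, an arginine-degrading enzyme of alternatively activated macrophages, rose from 1.30 to 2.59 RPKM (adjusted p = 0.000928 in limma), and S1pr1, a sphingosine-1-phosphate receptor, rose from 14.9 to 23.1 RPKM (adjusted p = 0.000105 in limma). Stromal markers fell in the same libraries, with a median of -2.40, and their part in the values of these listed genes was not tested.

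Tfeb, on chromosome 17 from 47737030 to 47792419 (plus strand), encodes a regulator of lysosome biogenesis that moves to the nucleus on starvation. It was at 14.9, 13.3 and 14.1 RPKM in Control libraries and at 22.8, 21.3 and 22.7 RPKM in siTet1/Tet2 libraries, with every siTet1/Tet2 library above every Control library. The mean rose from 14.1 ± 0.811 to 22.3 ± 0.819 RPKM (SD, n = 3), a ratio of 1.58, and the log2 fold change was 0.63 (standard error 0.07, 95% interval 0.47 to 0.78, adjusted p = 0.000195 from limma). Between 1000 and 2000 reads stood behind a value.

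Mitf, on chromosome 6 from 97807052 to 98021349 (plus strand), is the melanocyte and osteoclast member of the family. It was at 8.93, 8.43 and 9.68 RPKM in Control libraries and at 10.7, 10.6 and 12.8 RPKM in siTet1/Tet2 libraries. The groups did not overlap, but siTet1/Tet2 replicate 3 was well above the others. The mean rose by 26.1%, from 9.01 ± 0.631 to 11.4 ± 1.24 RPKM (SD, n = 3, log2 fold change 0.30, standard error 0.09, adjusted p = 0.0318 from limma). The adjusted p was over 0.05 without any 1 of 5 of the libraries, with 0.112 without Control replicate 2 as the highest, and was 0.12 after rescaling each library to the same sum. Relative to the macrophage markers, the log2 fold change was 0.05 (adjusted p = 0.735 from limma). A pseudogene, Gm15531, overlaps Mitf on the other strand.

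Tfec, on chromosome 6 from 16833373 to 16898441 (minus strand), is the member of the family whose expression is largely restricted to macrophages. It was at 7.61, 8.26 and 6.81 RPKM in Control libraries and at 9.28, 9.23 and 8.5 RPKM in siTet1/Tet2 libraries. The ranges did not touch, with 8.26 RPKM as the highest Control value and 8.5 RPKM as the lowest siTet1/Tet2 value. The mean was 7.56 ± 0.727 and 9.004 ± 0.435 RPKM (SD, n = 3), and the log2 fold change of 0.23 (standard error 0.09, 95% interval 0.02 to 0.43) did not pass (adjusted p = 0.0703 from limma). With the replicate number as a block it did pass (adjusted p = 0.0386 from limma), as it did after median ratio scaling and after quantile normalization. Relative to the macrophage markers the direction turned, with a log2 fold change of -0.03 (adjusted p = 0.83 from limma).

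The 4 MiT/TFE factors can form heterodimers, so their shares were computed in each library. Tfe3, the close relative of Tfeb, was the most abundant, and rose from 30.4, 29.3 and 28.0 RPKM in Control libraries to 36.4, 35.6 and 37.2 RPKM in siTet1/Tet2 libraries (adjusted p = 0.00349 from limma). The sum of the 4 was 61.9, 59.2 and 58.6 RPKM in Control libraries and 79.1, 76.8 and 81.3 RPKM in siTet1/Tet2 libraries (exact permutation p = 0.1). The share of Tfeb was 24.1%, 22.4% and 24.1% in Control libraries and 28.8%, 27.8% and 28% in siTet1/Tet2 libraries, without overlap (exact permutation p = 0.1). The share of Tfe3 was 48.8% ± 0.914 and 46.1% ± 0.278 (SD, n = 3), also without overlap (exact permutation p = 0.1). Mitf held 15.1% and 14.4% and Tfec 12.6% and 11.4%, with overlapping groups (exact permutation p = 0.5 and 0.3). Tfeb was the only 1 of the 4 whose share was higher in every siTet1/Tet2 library.

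**Figure D2:**
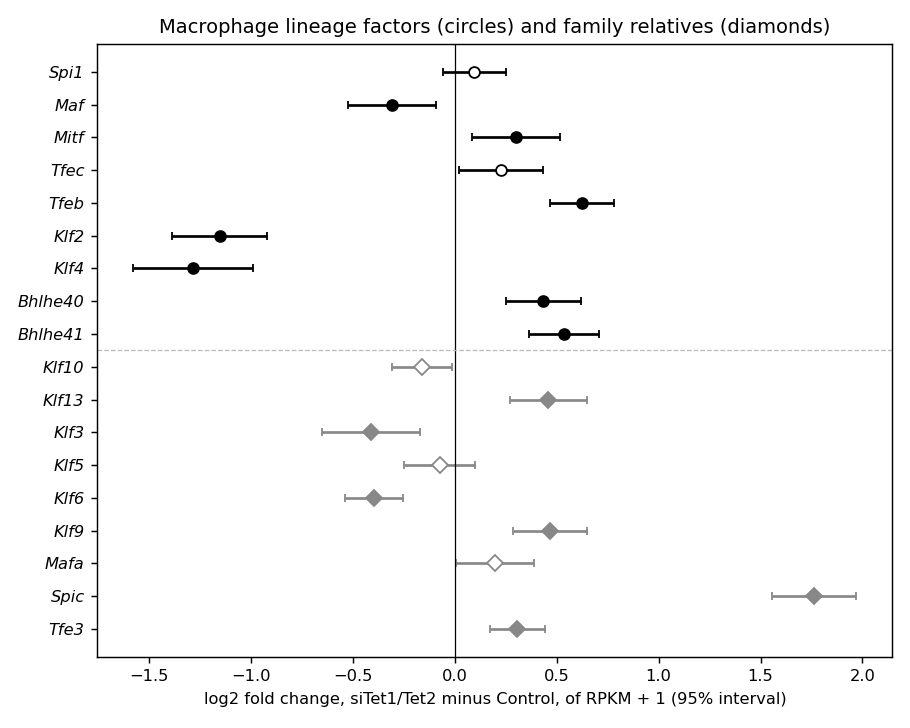
Log2 fold change (siTet1/Tet2 minus Control, of RPKM + 1) with its 95% interval from limma for the 9 factors (black circles) and for 9 of their family relatives (grey diamonds), where filled symbols have an adjusted p under 0.05. Klf2 and Klf4 lie farthest to the left and Spic farthest to the right, while the other Krüppel-like factors fall on both sides of 0.

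Lysosome and autophagy genes listed as targets of the MiT/TFE factors were higher or did not pass. Of 32 tested, 24 rose, 0 fell (also 0 at an unadjusted p under 0.05) and 8 did not pass in limma. Thus 75% passed beside 44.5% of all genes, with a median log2 fold change of 0.40 beside -0.09 over all genes. After quantile normalization 23 rose and 1 fell, and after median ratio scaling 27 rose and 0 fell. Atp6v0d2, a subunit of the proton pump of lysosomes and osteoclasts, rose from 57.6 to 139.4 RPKM (log2 fold change 1.26, adjusted p = 7.2e-06 in limma). Tpp1, a lysosomal peptidase, rose from 64.8 to 133.1 RPKM (1.03, adjusted p = 7.05e-06 in limma), and Gpnmb, a membrane glycoprotein of lipid-laden macrophages, rose from 2654 to 5117 RPKM (0.95, adjusted p = 0.000787 in limma). Many of these transcripts are abundant in macrophages, whose summed markers were higher in the same libraries, mostly through Lyz2, and the part of that difference was not tested.

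The kinase, GTPase and scaffold genes that control where MiT/TFE proteins reside were examined as well. Of 14 tested, 5 rose and 9 did not pass, so that 35.7% passed beside 44.5% of all genes, with a median log2 fold change of 0.14. After median ratio scaling 7 rose, and after quantile normalization 8. Lamtor4 rose from 49.0 to 78.2 RPKM (adjusted p = 0.000982 in limma) and Lamtor2 from 110.6 to 162.4 RPKM (adjusted p = 0.000798 in limma), both being subunits of the lysosomal scaffold of mTORC1. Rragd, a Rag GTPase, rose from 8.17 to 12.2 RPKM (adjusted p = 0.00248 in limma), and the others were Flcn and Fnip2, partners that act on the Rag GTPases. Of 10 osteoclast genes with MITF and PU.1 sites, 8 were tested, of which 2 rose, 1 fell and 5 did not pass, so that 37.5% passed, with a median of 0.00. After quantile normalization 4 rose and 0 fell. Acp5, the acid phosphatase TRAP, rose from 3.72 to 10.4 RPKM (adjusted p = 0.000439 in limma), Ctsk, a collagen-degrading protease, from 10.6 to 14.3 RPKM (adjusted p = 0.00921 in limma), and Tnfrsf11a, the receptor RANK, fell from 27.0 to 21.3 RPKM (adjusted p = 0.0161 in limma).

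Bhlhe40, on chromosome 6 from 108660629 to 108666925 (plus strand), encodes the repressor DEC1. It was at 15.7, 15.1 and 18.3 RPKM in Control libraries and at 22.2, 22.3 and 22.7 RPKM in siTet1/Tet2 libraries. The siTet1/Tet2 values lay close together and above every Control value. The mean rose by 36.9%, from 16.4 ± 1.68 to 22.4 ± 0.266 RPKM (SD, n = 3, log2 fold change 0.43, standard error 0.08, 95% interval 0.25 to 0.62, adjusted p = 0.00276 from limma). The call was lost when libraries were centred on the macrophage markers (adjusted p = 0.17 in limma). An antisense gene, 0610040F04Rik, overlaps Bhlhe40 on the other strand.

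Bhlhe41, on chromosome 6 from 145858243 to 145865558 (minus strand), encodes the paralog DEC2. It was at 15.0, 15.9 and 16.9 RPKM in Control libraries and at 25.2, 22.3 and 23.0 RPKM in siTet1/Tet2 libraries, again without overlap. The mean rose by 47.7%, from 15.9 ± 0.946 to 23.5 ± 1.49 RPKM (SD, n = 3, log2 fold change 0.54, standard error 0.07, 95% interval 0.36 to 0.71, adjusted p = 0.000655 from limma). Gm43909 overlaps the gene on the other strand. The paralogs were at near equal levels, with a ratio of Bhlhe40 to Bhlhe41 of 1.03 ± 0.0681 in Control libraries and 0.956 ± 0.0649 in siTet1/Tet2 libraries (SD, n = 3, exact permutation p = 0.3).

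Clock genes with E-boxes that both factors bind passed about as often as genes in general. Of 16 listed, 14 were tested, of which 5 rose, 1 fell and 8 did not pass, so that 42.9% passed beside 44.5% of all genes, with a median log2 fold change of 0.20. After median ratio scaling or quantile normalization 8 rose and 1 fell. Dbp, an output factor of the clock, was at 6.73, 5.92 and 6.06 RPKM in Control libraries and at 21.0, 21.4 and 21.6 RPKM in siTet1/Tet2 libraries (log2 fold change 1.63, adjusted p = 2.51e-06 in limma). Its relative Tef rose from 10.1 to 23.4 RPKM (adjusted p = 7.19e-06 in limma), and Per3, a period gene, from 0.979 to 2.22 RPKM (adjusted p = 0.00225 in limma). The other higher genes were Per2 and Nr1d2. Arntl, which encodes the activator BMAL1, fell from 4.37, 4.01 and 4.14 RPKM to 1.64, 1.99 and 2.02 RPKM (log2 fold change -0.85, adjusted p = 0.000166 in limma). The time of day at which cells were collected is not stated.

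Maf, on chromosome 8 from 115682942 to 115707794 (minus strand), was the second most abundant of the 9 genes. It was at 100.6, 113.9 and 120.3 RPKM in Control libraries and at 84.1, 85.2 and 100.7 RPKM in siTet1/Tet2 libraries. The groups touched, since siTet1/Tet2 replicate 3 at 100.7 RPKM was just above Control replicate 1 at 100.6 RPKM. The mean fell by 19.4%, from 111.6 ± 10.1 to 89.99 ± 9.30 RPKM (SD, n = 3, log2 fold change -0.31, standard error 0.09, 95% interval -0.52 to -0.09, adjusted p = 0.0277 from limma). The call was lost without Control replicate 2, Control replicate 3, siTet1/Tet2 replicate 1 or siTet1/Tet2 replicate 2 (adjusted p between 0.0519 and 0.104 in limma) and after median ratio or quantile scaling. An antisense gene, Gm15655, overlaps Maf, and whether strand was used in counting is not given in the sources used here.

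Of 8 targets of the large Maf factors, 3 rose, 2 fell and 3, the complement genes C1qa, C1qb and C1qc, did not pass. Thus 62.5% passed beside 44.5% of all genes, with a median log2 fold change of 0.18. C1qa, C1qb, C1qc, Cd163 and Mrc1 are macrophage markers as well. After median ratio scaling or quantile normalization 3 rose and 1 fell. F13a1, the transglutaminase of clotting factor XIII, rose from 6.40 to 35.9 RPKM (log2 fold change 2.31, adjusted p = 0.000186 in limma). The scavenger receptors Stab1 and Cd163 rose from 189.2 to 308.0 RPKM (adjusted p = 0.000444 in limma) and from 5.71 to 9.19 RPKM (adjusted p = 0.00199 in limma). The anti-inflammatory cytokine Il10 fell from 2.13 to 0.929 RPKM (adjusted p = 0.000188 in limma), and the mannose receptor Mrc1 fell from 170.2 to 140.7 RPKM (adjusted p = 0.0327 in limma).

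Spi1, on chromosome 2 from 91082390 to 91115756 (plus strand), was the most abundant of the 9 genes and ranked between 239 and 273 among all symbols of the table. It was at 206, 199 and 181 RPKM in Control libraries and at 209, 212 and 205 RPKM in siTet1/Tet2 libraries. The groups overlapped, with Control replicate 3 as the lowest library. The mean was 195.6 ± 12.8 and 208.9 ± 3.83 RPKM (SD, n = 3), and the log2 fold change of 0.10 (standard error 0.07, 95% interval -0.06 to 0.25) did not pass (adjusted p = 0.275 from limma). Relative to the macrophage markers, a scaling chosen after the data had been seen, the direction turned, with a log2 fold change of -0.16 (adjusted p = 0.0608 from limma).

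Its relative Spic, a factor of red pulp and marrow macrophages that handle haem iron, was far lower in level. It was at 2.69, 2.89 and 2.43 RPKM in Control libraries and at 10.9, 12.2 and 11.3 RPKM in siTet1/Tet2 libraries (log2 fold change 1.76, adjusted p = 5.12e-06 from limma). Over the 10 family relatives tested of the 9 genes, 5 rose, 2 fell and 3 (Klf5, Klf10 and Mafa) did not pass, with a median of 0.25.

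Targets of PU.1 moved in both directions while Spi1 itself did not pass. Of 20 tested, 13 rose, 5 fell and 2 (Ptprc and Ncf4) did not pass, so that 90% passed beside 44.5% of all genes, with a median log2 fold change of 0.23. Lyz2, which encodes lysozyme, rose from 4439 to 11320 RPKM (log2 fold change 1.36, adjusted p = 0.001 in limma). Tyrobp, the adaptor DAP12, rose from 465.6 to 1164 RPKM (1.35, adjusted p = 0.000578 in limma), and Csf3r, the receptor of G-CSF, from 6.92 to 15.0 RPKM (1.01, adjusted p = 3.85e-05 in limma). Fcgr1, a high-affinity IgG receptor, fell from 109.1 to 27.8 RPKM (log2 fold change -1.93, adjusted p = 3.09e-06 in limma). The scavenger receptor Msr1 fell from 292.2 to 172.5 RPKM (adjusted p = 0.000183 in limma), and the endotoxin receptor Tlr4 from 26.4 to 16.4 RPKM (adjusted p = 0.000315 in limma). Fcer1g, a signalling chain of Fc receptors, was also lower. Lyz2, Tyrobp, Fcgr1, Msr1, Cd14, Csf1r, Itgam and Ptprc are on the macrophage marker list as well, so the 2 lists are not independent.

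**Figure D3:**
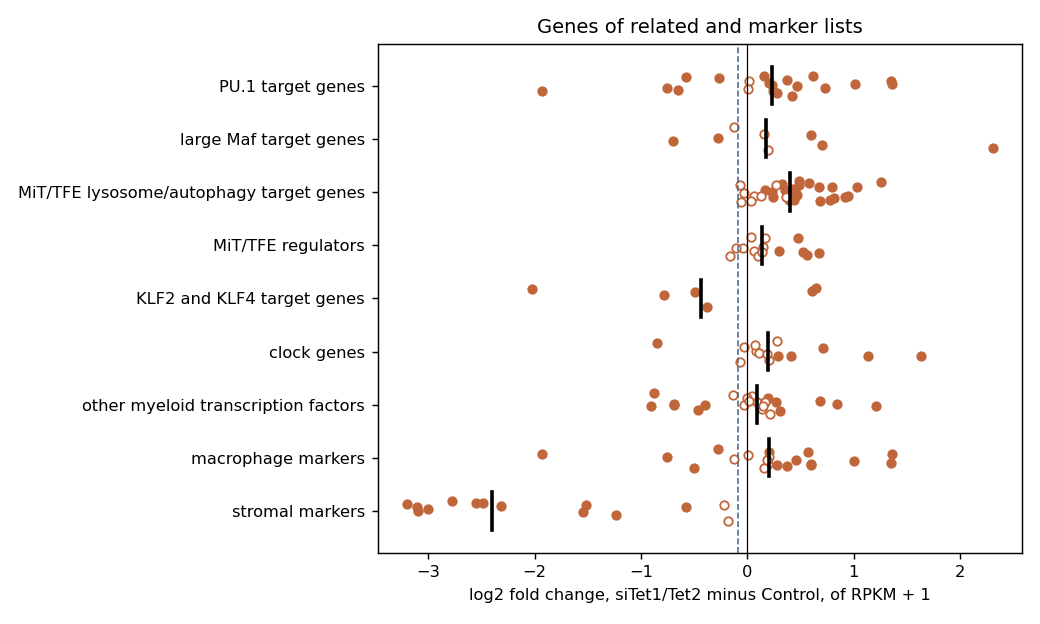
Log2 fold change (siTet1/Tet2 minus Control, of RPKM + 1) of each tested gene in the lists of targets, regulators, other myeloid transcription factors and markers, with filled points for an adjusted p under 0.05 in limma, a black bar at the list's median and a dashed line at the median of all genes, -0.09. The MiT/TFE targets lie mostly to the right, with a median of 0.40, the KLF2 and KLF4 targets have a median of -0.44, and the stromal markers have a median of -2.40.

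Of 24 other myeloid transcription factors, 23 were tested, of which 6 rose, 6 fell and 11 did not pass. Thus 52.2% passed beside 44.5% of all genes, with a median log2 fold change of 0.09. After median ratio scaling or quantile normalization 11 rose. Cebpa, the partner of PU.1 in myeloid commitment, rose from 110.2 to 256.5 RPKM (log2 fold change 1.21, adjusted p = 5.46e-06 in limma). The immediate early factors Egr2 and Nr4a1 rose from 1.37 to 3.23 RPKM (adjusted p = 0.000314 in limma) and from 1.97 to 3.76 RPKM (adjusted p = 0.00178 in limma). Ets2, an ETS factor downstream of the CSF1 receptor, fell from 15.7 to 7.91 RPKM (adjusted p = 0.000201 in limma), and the hypoxia factor Hif1a from 44.7 to 23.9 RPKM (adjusted p = 0.000302 in limma). The lipid-sensing nuclear receptor Pparg fell from 32.5 to 19.7 RPKM (adjusted p = 8.32e-05 in limma). Irf8, the partner of PU.1 in monocytes, was at 61.5 and 65.6 RPKM (adjusted p = 0.239 in limma).

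The order of the 9 genes by RPKM changed below the first 2 places. In the Control libraries Spi1 at 195.6 and Maf at 111.6 RPKM were followed by Bhlhe40, Bhlhe41, Tfeb, Klf2, Mitf, Klf4 and Tfec, where the ranges of Bhlhe40 and Bhlhe41, of Tfeb and Klf2, and of Klf4 and Tfec overlapped. In the siTet1/Tet2 libraries the order after Spi1 and Maf was Bhlhe41, Bhlhe40, Tfeb, Mitf, Tfec, Klf2 and Klf4. There the ranges of Bhlhe41, Bhlhe40 and Tfeb all overlapped. Klf2 and Klf4 thus stood last in siTet1/Tet2 libraries. As a share of Spi1, Tfeb went from 7.23% ± 0.57 to 10.7% ± 0.557 (SD, n = 3, exact permutation p = 0.1) and Maf from 57.4% ± 8.76 to 43.1% ± 5.22 (SD, n = 3, exact permutation p = 0.2).

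Among the 11068 genes that averaged 1 RPKM or more, those with the most similar pattern over the 6 libraries were found by the root mean square difference of log2(RPKM + 1) after centring each gene. Nearest to Klf2 were Naa25 (0.0279), Pls3 (0.039) and Fam102a (0.039), and nearest to Klf4 were Casc4 (0.0384), Inhbb (0.0543) and Filip1l (0.0548). For Tfeb they were Mmp24 (0.0423) and Atp13a2 (0.0426), for Mitf Ube2h (0.0237), Ipmk (0.0282) and Tfdp2 (0.0289), and for Tfec Ly9 (0.02) and Lmbrd1 (0.0298). Bhlhe40 was closest to Tecpr1 (0.0249), Ctdsp2 (0.0255) and D10Bwg1379e (0.0366), and Bhlhe41 to Aplp2 (0.0291), Pdp1 (0.0315) and Snx27 (0.034). Maf was closest to BC030336 (0.0207) and Ppp4r2 (0.0233), and Spi1 to Rnpep (0.0118), Ptma (0.017) and Dctn2 (0.0188). None of these neighbours was another of the 9 genes.

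**Figure D4:**
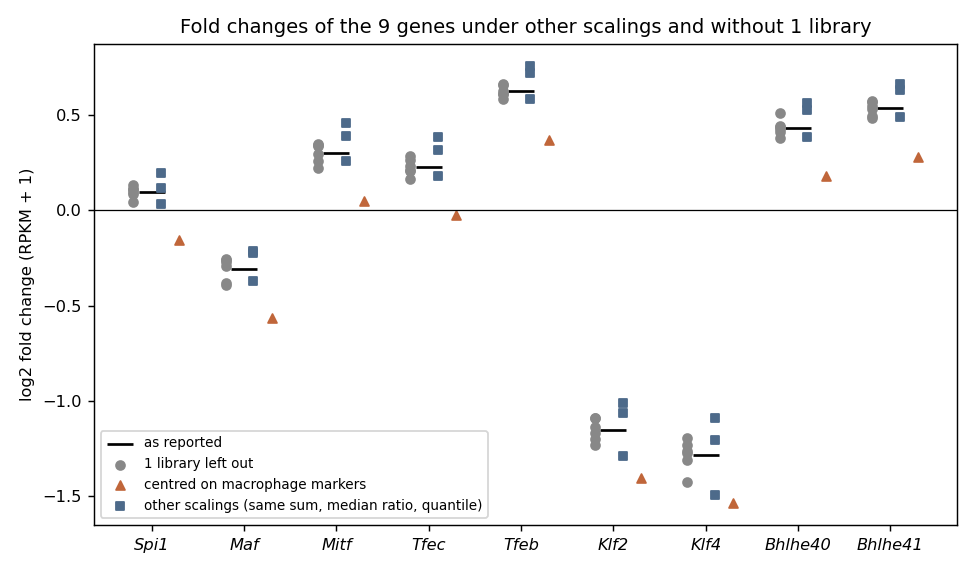
Log2 fold change (siTet1/Tet2 minus Control, of RPKM + 1) of the 9 factors as reported (bar), with 1 library left out (grey circles), after other scalings (blue squares) and with each library centred on the macrophage markers (orange triangles). Klf2, Klf4 and Maf stay below 0 and Mitf, Tfeb, Bhlhe40 and Bhlhe41 above 0 in all of them, whereas Spi1 and Tfec turn from 0.10 to -0.16 and from 0.23 to -0.03 relative to the macrophage markers.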

How the data were processed

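The authors trimmed adaptors, mapped paired-end reads to GRCm38 and estimated abundance with DNASTAR Lasergene. The deposited table holds RPKM for each library, named FPKM in the methods, and a p-value of the authors' own comparison, which was not used. Which annotation release was taken, whether strand was used and how multi-mapped reads were treated is not given in the sources used here. The depth was estimated from the steps of low RPKM in genes with 1 transcript (between 52.1% and 59.7% of values lay within 0.1 of a whole read), and reads per gene rest on the longest GENCODE M21 transcript. No count test was run.

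Of symbols listed more than once (37), only the most abundant row was used. In the 13266 genes averaging 0.1 RPKM or more, log2(RPKM + 1) was compared with limma 3.58.1 in R 4.3.3 (lmFit, eBayes with trend, two-sided), with Benjamini-Hochberg adjustment over all of them and a threshold of 0.05. The fit was tested on simulated data. Other steps used Python 3.11.15, pandas 2.3.3 and numpy 2.4.6. Positions were read from GENCODE M21, and Adgre1 was found under its older symbol Emr1.

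The 9 genes and the hand-compiled lists were chosen with earlier results of these data known. From each target, regulator and relative list, the 3 largest increases and 3 largest decreases that passed are named, with Tfe3, and for each of the 9 genes the 3 with the nearest pattern. Some genes that these rules take are not reported here. Further list genes, such as Klf10 and Irf8, were named after their values were seen. Correlations were between 0.992 and 0.997 within groups and between 0.949 and 0.969 across groups. The labels give both groups the same replicate numbers. A fit paired by these numbers was added as an alternative to the unpaired comparison. Deviations from the group means correlated by 0.149, 0.117 and 0.462 between libraries numbered 1, 2 and 3. Control replicate 1 with siTet1/Tet2 replicate 2 reached 0.332, and whether libraries of the same number were paired is not stated. Alternatives comprised 2 smaller pseudocounts (0.1 and 0.01), no filter, a minimum mean of 1 RPKM, 3 other scalings, eBayes without trend, the replicate block, summed rows and each library left out. Centring on the macrophage markers, with and without Emr1, was chosen after the data were seen.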

Additional observations from a re-analysis of the deposited data

How the results depend on the processing

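Tfeb, Klf2, Klf4 and Bhlhe41 held their direction and stayed under an adjusted p of 0.05 in limma under all 18 alternatives, with log2 fold changes from 0.35 to 0.76, from -1.43 to -1.01, from -1.57 to -1.09 and from 0.26 to 0.67. Of the others, Bhlhe40 lost its call when each library was centred on the macrophage markers (0.18, adjusted p = 0.17) and on those markers other than Emr1 (0.16, adjusted p = 0.226). In the same 2 settings, both chosen after the data were seen, Spi1 turned to -0.16 (adjusted p = 0.0608) and -0.18 (adjusted p = 0.044), Tfec turned to -0.026 (adjusted p = 0.83) and -0.049 (adjusted p = 0.696), Mitf was at 0.048 (adjusted p = 0.735) and 0.026 (adjusted p = 0.856), and 2 of the 9 genes rose in each. Whether Spi1 passed there thus turned on 1 marker. These 2 settings moved the median over all genes from -0.09 to -0.34 and -0.36, and quantile normalization moved it to 0.06.

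Maf lost its call without a filter on low values (-0.31, adjusted p = 0.0543), after median ratio scaling (-0.21, adjusted p = 0.0829) and after quantile normalization (-0.22, adjusted p = 0.143). Mitf lost its call without the filter (0.30, adjusted p = 0.0508) and after rescaling to the same sum (0.26, adjusted p = 0.12). Tfec passed after median ratio scaling (0.32, adjusted p = 0.0237) and after quantile normalization (0.39, adjusted p = 0.0135). With the replicate block, which pairs libraries of the same number, Tfec passed as well (0.23, adjusted p = 0.0386), and the block changed no other call among the 9 genes. With 1 library left out, log2 fold changes ranged from -0.39 to -0.25 for Maf, from 0.22 to 0.35 for Mitf, from 0.16 to 0.29 for Tfec, from 0.04 to 0.14 for Spi1 and from 0.38 to 0.51 for Bhlhe40, and the number of the 9 genes that fell was 2 to 3 and that rose 3 to 4. Without the filter, limma was refitted on 18534 genes. The causes of these shifts were not tested. RPKM without read counts limits what depth can show for Klf2 and Klf4, which rest on the fewest reads.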
